A study of Mus musculus with 6 samples.

Results

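Kidney cells of MMPP-treated ADPKD mice were compared with those of healthy mice, to see what stays or becomes different from WT under the treatment. Genes were taken by 1 rule, an FPKM of at least 1 in at least 2 of the 4 ADPKD+MMPP and WT libraries, which 14100 of the 55367 gene symbols met. FPKM gives the sequenced fragments of a gene relative to the length of the gene and the depth of its library. Of these genes, 2955 reached 1 FPKM in both WT libraries and in no treated library, and 1026 in both treated libraries and in no WT library, so the filter itself let such genes in through the group where they were high. The WT libraries came from Pkd1+/+ mice given saline, the ADPKD libraries from Pkd1-/- mice given saline and the ADPKD+MMPP libraries from Pkd1-/- mice given mmpp, with 2 libraries in each group, all labelled Day115. The knockout was made in male Pkd1 fl/fl;Cre/Esr1+ mice, in which tamoxifen switches on a Cre recombinase fused to the estrogen receptor, and the promoter that drives this Cre was not given in the methods. All libraries were polyA RNA of kidney cells captured with DBA, a plant lectin. MMPP is an ultra-small particle of melanin that chelates Mn2+ and is coated with polyethylene glycol, given by repeated intravenous injection as a scavenger of reactive oxygen species. No library of MMPP-treated WT mice was analysed here, so in ADPKD+MMPP against WT the genotype and the agent differ together and cannot be told apart. ADPKD values stand beside most results, and both comparisons share the same WT libraries. The counts of called genes and the log2 fold changes of ADPKD are as deposited unless said otherwise. Nothing in the labels says that the 2 libraries of a group are separate mice, so a p-value measures only the spread between these libraries, which may be technical.

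DBA binds sugars on the surface of the collecting duct, the last segment of the nephron. Its principal cells take up water and sodium through aquaporins and the epithelial sodium channel, and its intercalated cells move acid and bicarbonate. In autosomal dominant polycystic kidney disease the loss of polycystin 1, the product of *Pkd1*, turns collecting ducts and other tubules into cysts whose lining cells divide, secrete fluid and shift away from oxidative metabolism, while macrophages and matrix-forming cells gather around them. The transcription factor CREB, which answers cyclic AMP, drives early response genes in such cells.

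Relative to WT, the deposited ADPKD+MMPP values followed the number and overlap of a gene's annotated transcripts, and the ADPKD values hardly did. For each gene the share of its exon bases covered by exactly 1 of its own annotated transcripts was taken from GENCODE vM21. Of the 14100 genes, 12052 were protein-coding genes with such a share. In ADPKD+MMPP against WT the median log2 fold change was -1.71 for the 1647 genes with a share under 0.2, -1.25 for the next 2585, -0.57 for the next 2622, 0.52 for the next 2523 and 1.16 for the 2675 genes with a share of at least 0.8. Genes with 1 transcript, 1283 in number, had a median of 1.26, and the 1901 genes with 10 or more transcripts had a median of -1.45. In ADPKD against WT the median lay between -0.03 and 0.05 in the same 5 classes of share. Across these genes Spearman's rho between the log2 fold change and the share was 0.61 in ADPKD+MMPP against WT and 0.06 in ADPKD against WT. Genes are not independent, so no p is given. All libraries with this dependence belong to 1 group, so the treatment and the way the values were made cannot be told apart by it. Results are therefore read as deposited and again centred, that is, after each library was centred within classes of this share over the protein-coding genes. For many single genes only the centred change is printed, while FPKM values are always as deposited. The classes were set as 20 of equal size, but genes with the same share were kept in 1 class, so the classes were fewer and unequal. Centring left a rho of -0.08 with the share. With the number of transcripts rho was -0.48 as deposited and -0.20 centred, so a dependence on that number remained. In what follows a gene rose or fell only where it was called in the same direction on both scales. A count of ADPKD genes needs only the call as deposited unless said otherwise, so the counts set side by side follow unlike rules.

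**Figure D1:**
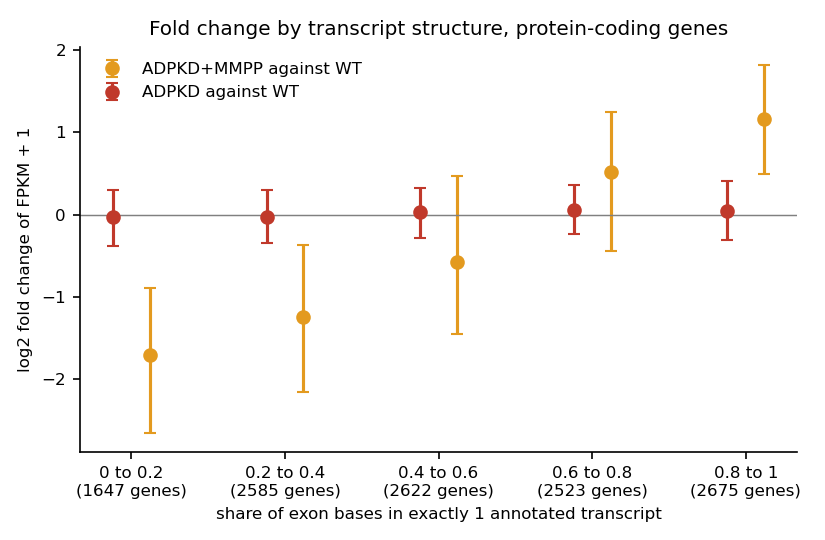
Log2 fold change of FPKM + 1 (vertical axis) of protein-coding genes in 5 classes of the share of exon bases lying in exactly 1 annotated transcript (horizontal axis); points are medians over genes and bars run from the lower to the upper quartile. The ADPKD+MMPP medians climb from -1.71 to 1.16 across the classes while the ADPKD medians stay between -0.03 and 0.05.

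Other measures of the libraries also separated ADPKD+MMPP from the rest. In each library the most common low value of FPKM times exon length was taken as 1 pair of reads. The worth of 1 read was then tuned to bring low values near whole numbers, and 98.3% to 99% lay within 0.05 reads of one. This agreement is no check of the assumed step, on which the read totals and odd numbers rest. The step put the read total that scales the FPKM at 30.6 and 31.0 M in WT against 33.1 and 32.1 M in ADPKD and 11.8 and 10.9 M in ADPKD+MMPP. Whether this total is the sequencing depth or only the reads that were counted was not tested. Odd read numbers made up 35.2% to 37.9% of low values in WT and ADPKD and 7.67% and 7.43% in ADPKD+MMPP. The number of symbols above 0 was 25260 to 25498 in WT and ADPKD and 19509 and 19275 in ADPKD+MMPP, so an FPKM near 0 there rests on fewer reads. Replicates correlated across genes on log2(FPKM + 1) with r = 0.987 for WT, 0.960 for ADPKD and 0.992 for ADPKD+MMPP, and the ADPKD+MMPP libraries correlated with the WT libraries with r from 0.563 to 0.570. The mean chi-square per gene between the estimated read pairs of replicates was 15.6 for WT, 60.2 for ADPKD and 2.22 for ADPKD+MMPP, where counting noise alone gives about 1. The treated replicates thus lay closest together, though fewer reads also lower this value.

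The targeted gene *Pkd1* on chromosome 17 at 24549834-24596508 of GRCm38, had 17.7 and 17.2 FPKM in WT against 7.64 and 8.91 in ADPKD and 4.34 and 3.99 in ADPKD+MMPP, so all Pkd1-/- libraries lay below both WT libraries. The group means were 17.5 ± 0.38, 8.27 ± 0.898 and 4.16 ± 0.247 FPKM (SD, n = 2). The log2 fold change against WT was -1.84 ± 0.13 (SE) in ADPKD+MMPP as deposited, -1.31 ± 0.13 centred and -1.0 ± 0.13 in ADPKD, with limma adjusted p = 5.72e-05, 2.15e-04 and 0.00511. *Pkd1* has 10 transcripts and a share of 56.3%. Genes with 10 or more transcripts had a median of -1.45 in ADPKD+MMPP as deposited, so the low treated level is read beside that shift. The values are per gene, so the deleted exons could not be looked at alone. *Esr1*, whose sequence is part of the Cre fusion, had 0.471 and 0.51 FPKM in ADPKD+MMPP against 0.242 and 0.161 in WT and 30.6 and 30.3 in ADPKD. Its level in ADPKD+MMPP was thus near that of WT, which goes against the transgene that these mice carry. *Esr1* has 10 transcripts and a share of 66.1%. Whether the way the values were made or the origin of the libraries lies behind this level was not tested. ADPKD+MMPP means here the libraries labelled so. *Ddx3y* and *Eif2s3y*, on the Y chromosome, were above 2 FPKM in all 6 libraries and *Xist* was below 0.05 FPKM, as in male cells.

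Over all 14100 genes, 4454 (31.6%) were called higher and 6289 (44.6%) lower in ADPKD+MMPP than in WT as deposited, at a fold change of at least 1.5 and an unadjusted P under 0.05 in limma, or 76.2% in either direction. Centred, 4255 of 12052 protein-coding genes (35.3%) were higher and 3262 (27.1%) lower, or 62.4% in either direction. On both scales in the same direction, 2450 (20.3%) rose and 2642 (21.9%) fell, and counts of list members below are read against these percentages. They are a rough guide, because calls as deposited depended on gene structure. Of genes with a single-transcript share of at least 0.8, 71.6% were higher as deposited, against 5.16% of those under 0.2. The median share of a list's genes ran from 39.1% (thick limb and distal convoluted tubule) to 70.1% (principal cell). In ADPKD against WT, 1833 genes (13%) were higher and 1864 (13.2%) lower as deposited. On both scales 1477 (12.3%) of the 12052 protein-coding genes were higher there and 1497 (12.4%) lower. The WT and ADPKD+MMPP libraries did not overlap for 93% of genes, and the WT and ADPKD libraries did not overlap for 67.4%. The median log2 fold change over all genes was -0.33 in ADPKD+MMPP against WT and 0.01 in ADPKD against WT. Rescaling the libraries to a common sum of FPKM, by their median ratio or by quantiles moved the ADPKD+MMPP median to -0.63, -0.21 and 0.07, and the centred median was 0.16, so list medians are read relative to these values. Fold changes are on the log2(FPKM + 1) scale, which understates the change of low genes.

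**Figure D2:**
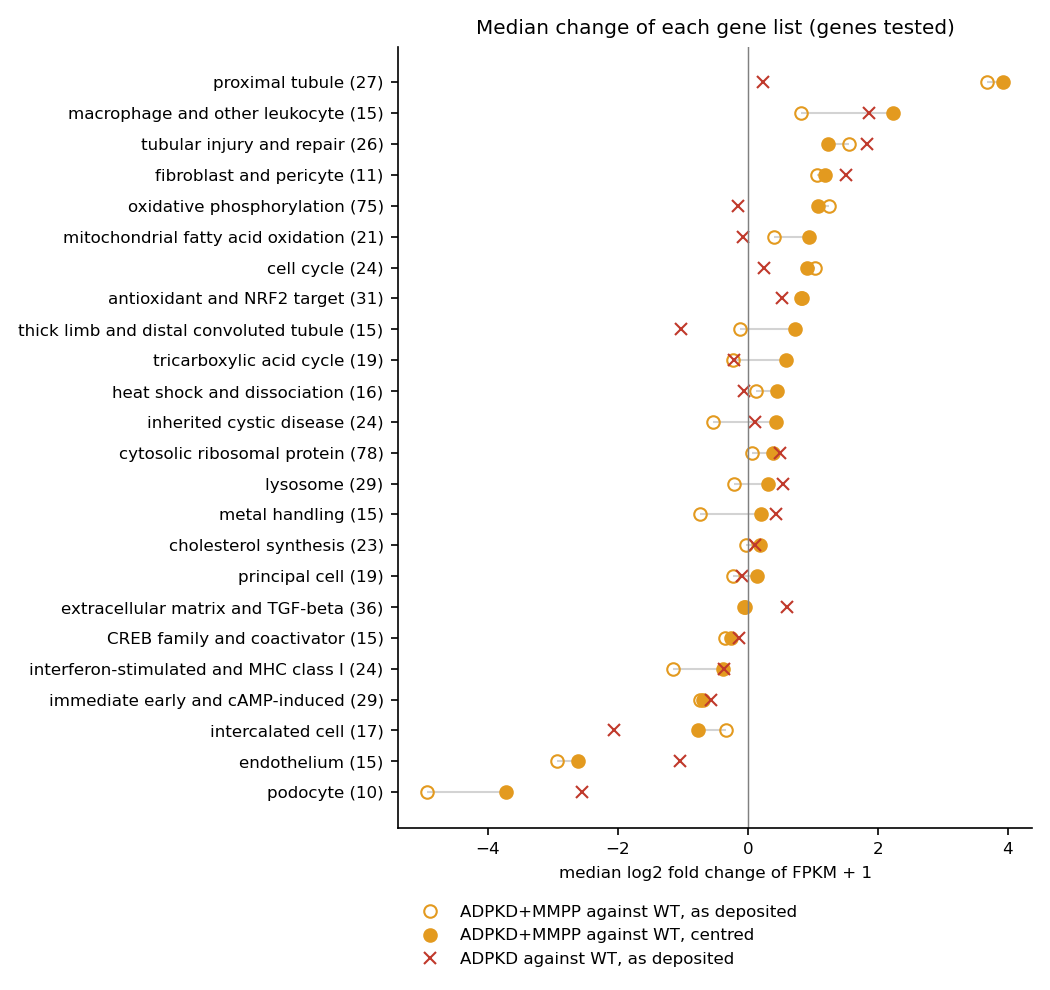
Median log2 fold change against WT (horizontal axis) of 24 gene lists, with the number of genes tested in brackets; open circles are ADPKD+MMPP as deposited, filled circles ADPKD+MMPP centred and crosses ADPKD. Proximal tubule genes sit at 3.68 and 3.93 in ADPKD+MMPP and at 0.23 in ADPKD, while podocyte and endothelial genes lie on the low side in both comparisons.

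Markers of principal cells, the type that DBA should capture, were present in all 6 libraries and moved in no single direction in ADPKD+MMPP. *Aqp2*, the water channel regulated by vasopressin, on chromosome 15 at 99579055-99584547 and with 1 transcript, had 1267 and 1776 FPKM in WT against 1392 and 677 in ADPKD and 3555 and 3499 in ADPKD+MMPP. Both treated libraries were above both WT libraries as deposited, with a log2 fold change of 1.23 ± 0.35 (limma adjusted p = 0.0185), but the centred change was -0.03 ± 0.33 (limma adjusted p = 0.94), so the difference as deposited was not seen beside genes of like structure. *Aqp3*, the basolateral water channel, gave 1.23 as deposited and 0.34 centred and was called on neither scale. The SE was pooled over all 6 libraries, and the missing call of *Aqp3* as deposited depended on the ADPKD pair. *Scnn1b*, a subunit of the sodium channel with a share of 7.37%, gave -1.89 and 0.20, and the same channel's *Scnn1g* gave 1.22 and -0.05. Of 19 principal cell genes tested 3 rose and 4 fell, with a median of -0.23 as deposited (-0.44 to 0.04 over the other scalings) and 0.15 centred, and ADPKD gave 4 higher and 1 lower. Those that rose were *Cldn4*, a tight junction protein, *Krt18*, a keratin of simple epithelia, and *Tfcp2l1*, a transcription factor of the collecting duct. *Cldn4* had 4778 and 4914 FPKM in ADPKD+MMPP against 717 and 932 in WT and 2152 and 2299 in ADPKD, the treated libraries being the highest. Its centred change was 1.3 ± 0.15 (limma adjusted p = 3.98e-04). *Krt18* had 211 and 264 FPKM in WT against 667 and 857 in ADPKD and 1505 and 1454 in ADPKD+MMPP and a centred change of 1.38 ± 0.18 (limma adjusted p = 5.87e-04). The 4 that fell were *Sgk1*, *Npnt*, *Nr3c2* and *Ptgs1*. Aldosterone acts through the receptor made from *Nr3c2* and induces the kinase made from *Sgk1*. *Sgk1* had 4.66 and 4.11 FPKM in ADPKD+MMPP against 363 and 375 in WT and 173 and 176 in ADPKD, a centred fall by 4.52 on the log2 scale.

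Intercalated cell genes were below WT in ADPKD, and in ADPKD+MMPP their position depended on the scale. In ADPKD 14 of 17 were called lower and none higher, with a median of -2.05. In ADPKD+MMPP the median was -0.34 as deposited and -0.76 centred, none rose and 5 fell. Those that fell were *Car12*, *Atp6v1c2*, *Slc4a9*, *Insrr* and *Kit*. *Slc26a4*, which encodes pendrin, the chloride and bicarbonate exchanger of type B cells, had 83.6 and 109 FPKM in WT against 12.4 and 2.15 in ADPKD and 45.3 and 45 in ADPKD+MMPP. The treated libraries lay between ADPKD and WT, at -1.06 ± 0.64 as deposited (limma adjusted p = 0.166) and -2.21 ± 0.57 centred (limma adjusted p = 0.0129), so it was called on the centred scale only. The SE was pooled over all 6 libraries and took in the spread of the ADPKD pair, on which the missing call as deposited depended. The proton pump subunit *Atp6v1g3* had 34.6 and 39.9 FPKM in ADPKD+MMPP against 46.5 and 48.3 in WT and 10.7 and 4.64 in ADPKD and likewise passed only when centred, at -1.6. *Slc4a1*, the exchanger of type A cells, gave -0.51 and -1.65 against -3.2 in ADPKD, and the pump subunit *Atp6v0d2* gave 0.57 and -0.69 against -1.25. *Foxi1*, the transcription factor that specifies intercalated cells, had 9.23 and 7.55 FPKM in WT against 2.14 and 1.35 in ADPKD and 23.1 and 22.9 in ADPKD+MMPP and gave 1.36 as deposited and 0.10 centred.

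Proximal tubule genes stood furthest above WT among the lists in ADPKD+MMPP. Of 27 tested, 22 rose and none fell, with a median of 3.68 as deposited (3.35 to 3.81 over the other scalings) and 3.93 centred, against 9 higher, 2 lower and a median of 0.23 in ADPKD. Their summed level was 1118 and 852 FPKM in WT against 2319 and 1629 in ADPKD and 25495 and 24341 in ADPKD+MMPP. *Lrp2*, the endocytic receptor megalin on chromosome 2 at 69424340-69586065, had 68.7 and 68.7 FPKM in ADPKD+MMPP against 1.88 and 2.21 in WT and 9.8 and 4.86 in ADPKD. The 2 treated libraries were at the same level and above all others, with a log2 fold change of 4.52 ± 0.28 as deposited (limma adjusted p = 4.46e-05) and 4.09 ± 0.26 centred (limma adjusted p = 4.31e-05). *Slc22a6*, the organic anion transporter OAT1 with 1 transcript, had 4.38 and 1.65 FPKM in WT against 4.27 and 0.251 in ADPKD and 147 and 150.4 in ADPKD+MMPP, a centred change of 4.05 ± 0.66 (limma adjusted p = 0.00171). *Kap*, the androgen-regulated protein of this segment, had 12822 and 12116 FPKM in ADPKD+MMPP against 234 and 101 in WT and 509 and 64 in ADPKD. Not all members moved. *Slc34a1*, the sodium phosphate cotransporter, had 67.5 and 22.9 FPKM in WT against 44.9 and 4.44 in ADPKD and 57.2 and 57.8 in ADPKD+MMPP, so its WT libraries straddled the treated ones. Its change of 0.53 ± 1.02 as deposited became -0.23 without WT replicate 2 and 1.29 without WT replicate 1, not called in either case. *Hnf4a*, the transcription factor of this segment with a share of 9.78%, gave -1.72 as deposited and 0.27 centred. These genes are not expressed by the collecting duct in quantity, and whether the captured cells or RNA from the proximal tubule carried them was not tested. In bulk samples, more cells of a type and more RNA per cell cannot be told apart.

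Thick limb and distal convoluted tubule genes gave 3 of 15 that rose and 2 that fell, against 1 higher and 8 lower in ADPKD. Their median was -0.11 as deposited (-0.38 to 0.30 over the other scalings), 0.72 centred and -1.03 in ADPKD. *Egf*, the growth factor precursor of the distal nephron, fell, with 15.8 and 17.3 FPKM in ADPKD+MMPP against 191 and 75.7 in WT and 11.4 and 0.418 in ADPKD. *Wnk1*, a kinase that regulates salt transport, fell by 2.08 centred, and the claudins *Cldn16* and *Cldn10* and the prostaglandin receptor gene *Ptger3* rose. *Slc12a3*, the thiazide-sensitive cotransporter, had 80.6 and 70.2 FPKM in WT against 35.6 and 3.14 in ADPKD and 65.8 and 67.4 in ADPKD+MMPP, so the treated libraries were near WT, with -0.17 as deposited and -0.27 centred. *Umod*, which encodes uromodulin and has a share of 4.99%, had 80.3 and 79.3 FPKM in ADPKD+MMPP against 987 and 319 in WT and 498 and 152 in ADPKD and gave -2.8 as deposited and -0.70 centred. *Sostdc1*, a BMP antagonist, gave 2.62 and 1.36, the calcium-binding *Calb1* 1.05 and -0.09, and *Tmem72* 1.2 and -0.06, and none of the 3 was called when centred.

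All 10 podocyte genes fell in ADPKD+MMPP, and all 10 were also lower in ADPKD. Podocytes are the filtering cells of the glomerulus, and their markers were well above 0 in the WT libraries, where the summed level of the list was highest: 1105 and 1521 FPKM in WT against 279.9 and 148 in ADPKD and 134 and 139 in ADPKD+MMPP. *Podxl*, the surface sialomucin podocalyxin, had 475 and 609 FPKM in WT against 114 and 56.8 in ADPKD and 84.1 and 80.8 in ADPKD+MMPP, with a log2 fold change of -2.69 ± 0.33 as deposited (limma adjusted p = 5.15e-04), -3.95 ± 0.30 centred (limma adjusted p = 7.91e-05) and -2.73 ± 0.33 in ADPKD. *Clic5*, a chloride channel protein of podocyte foot processes, had 11.1 and 11.3 FPKM in ADPKD+MMPP against 50.7 and 61.5 in WT and 13.4 and 8.56 in ADPKD and a centred change of -3.48 ± 0.20. In both genes every Pkd1-/- library was below both WT libraries. *Ptpro*, a receptor phosphatase, was listed at 0 in both treated libraries and at 25.7 and 40.2 FPKM in WT and 6.02 and 1.34 in ADPKD. The list's median was -4.93 as deposited, -3.72 centred and -2.55 in ADPKD.

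Endothelial genes followed the same direction, with 12 of 15 that fell and none that rose, against 12 lower and 1 higher in ADPKD. The summed level was 1785 and 1558 FPKM in WT against 865 and 839 in ADPKD and 477 and 503 in ADPKD+MMPP. *Pecam1*, an adhesion molecule at endothelial junctions with a share of 43.5%, had 146 and 126 FPKM in WT against 67.5 and 67.9 in ADPKD and 3.64 and 4.41 in ADPKD+MMPP. Its change was -4.77 ± 0.14 as deposited and -3.69 ± 0.14 centred (limma adjusted p = 1.73e-05), against -0.99 ± 0.14 in ADPKD. *Cdh5*, the junctional VE-cadherin with a share of 96.7%, had 71.3 and 74.4 FPKM in ADPKD+MMPP against 167 and 131 in WT and 93.3 and 104 in ADPKD, or -1.01 as deposited and -2.27 centred. *Ehd3*, enriched in glomerular capillaries, had 149.5 and 134 FPKM in WT against 24.2 and 8.39 in ADPKD and 17 and 18.2 in ADPKD+MMPP and fell by 4.2 centred. In these 3 genes all Pkd1-/- libraries were below both WT libraries, and in *Pecam1* and *Cdh5* the treated ones were lowest. *Cldn5*, the tight junction claudin of endothelium, gave -0.18 as deposited and -1.45 centred, the latter called. *Plvap*, a protein of fenestral diaphragms, had 208 and 236 FPKM in ADPKD+MMPP against 146 and 127 in WT and 242 and 277 in ADPKD, the exception of the list, with 0.70 as deposited and -0.56 centred.

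Leukocyte genes, most of them of macrophages, were more often above than below WT in both comparisons. Of 22 leukocyte genes 15 were tested, and 8 rose and 2 fell in ADPKD+MMPP, against 11 higher and 2 lower in ADPKD. The filter used only the WT and ADPKD+MMPP libraries, so a member above 1 FPKM in ADPKD alone, such as *Ptprc*, is in neither count. *Lyz2*, the lysozyme of myeloid cells, which has a close copy in *Lyz1*, lies with 1 transcript on chromosome 10 at 117277331-117282321 and had 7.63 and 8.69 FPKM in WT against 188 and 224 in ADPKD and 568 and 565 in ADPKD+MMPP. The 3 groups did not overlap and WT was lowest, with a log2 fold change of 5.96 ± 0.14 as deposited, 4.69 ± 0.14 centred and 4.49 ± 0.14 in ADPKD (limma adjusted p = 1.07e-05, 1.46e-05 and 4.46e-04). *C1qa*, a complement subunit made by resident macrophages, had 241 and 271 FPKM in ADPKD+MMPP against 14.3 and 11.6 in WT and 115.2 and 141 in ADPKD. Its change in ADPKD+MMPP was 4.21 as deposited and 2.95 centred, against 3.21 in ADPKD as deposited. Its partner *C1qb* gave 4.30, 3.04 and 3.28. *Adgre1*, the F4/80 antigen with a share of only 3.0%, had 1.54 and 1.04 FPKM in WT against 11.6 and 6.6 in ADPKD and 2.93 and 3.06 in ADPKD+MMPP. Its change of 0.81 as deposited became 0.66 without WT replicate 2 and lost its call, and centred it was 2.91 ± 0.23 and called (limma adjusted p = 9.40e-05). *Ptprc*, which encodes the pan-leukocyte antigen CD45, had 0.314 and 0.50 FPKM in ADPKD+MMPP against 0.93 and 0.601 in WT and 3.26 and 2.23 in ADPKD and was below the filter. The T cell gene *Cd3e* stayed below 0.3 FPKM in all libraries. *Mrc1*, the mannose receptor, fell, with 20.4 and 18.4 FPKM in WT against 8.62 and 13.2 in ADPKD and 11 and 10.5 in ADPKD+MMPP, and *Csf1r*, the receptor of macrophage growth factor with a share of 33.3%, fell in ADPKD+MMPP and was higher in ADPKD, with 0.381 and 0.19 FPKM in ADPKD+MMPP against 5.0 and 8.04 in WT and 17 and 25.6 in ADPKD. The summed level of the tested members was 289 and 223 FPKM in WT against 1271 and 955 in ADPKD and 1422 and 1466 in ADPKD+MMPP.

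Fibroblast and pericyte genes held both directions, with 6 of 11 that rose and 3 that fell, against 6 higher and 2 lower in ADPKD. The collagen gene *Col1a1* on chromosome 11 at 94936224-94953042, had 0.364 and 0.389 FPKM in WT against 32.3 and 33.4 in ADPKD and 61.6 and 70.1 in ADPKD+MMPP. Both treated libraries lay above both ADPKD libraries, and the log2 fold change against WT was 5.6 ± 0.12 as deposited (limma adjusted p = 1.07e-05), 4.34 ± 0.13 centred (limma adjusted p = 1.46e-05) and 4.62 ± 0.12 in ADPKD. *Col3a1* had 65.3 and 65.1 FPKM in ADPKD+MMPP against 0.24 and 0.382 in WT and 32.2 and 32.6 in ADPKD, and *Dpt*, which encodes the matrix protein dermatopontin, 0.19 and 0.15 FPKM in WT against 4.49 and 1.48 in ADPKD and 6.68 and 9.36 in ADPKD+MMPP. *Pdgfrb*, a receptor of pericytes with a share of 2.3%, fell, with 1.05 and 0.837 FPKM in ADPKD+MMPP against 91.3 and 65.6 in WT and 38.9 and 31.4 in ADPKD, as did *Pdgfra* and *Myh11*. *Rgs5*, another pericyte gene, gave 0.51 as deposited and -0.75 centred. Hemoglobin genes of red cells were low throughout, with *Hba-a1* at 2.86 and 4.81 FPKM in WT, 2.35 and 1.46 in ADPKD and 1.04 and 0 in ADPKD+MMPP, and of the 3 red cell genes tested 1 rose and 1 fell.

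**Figure D3:**
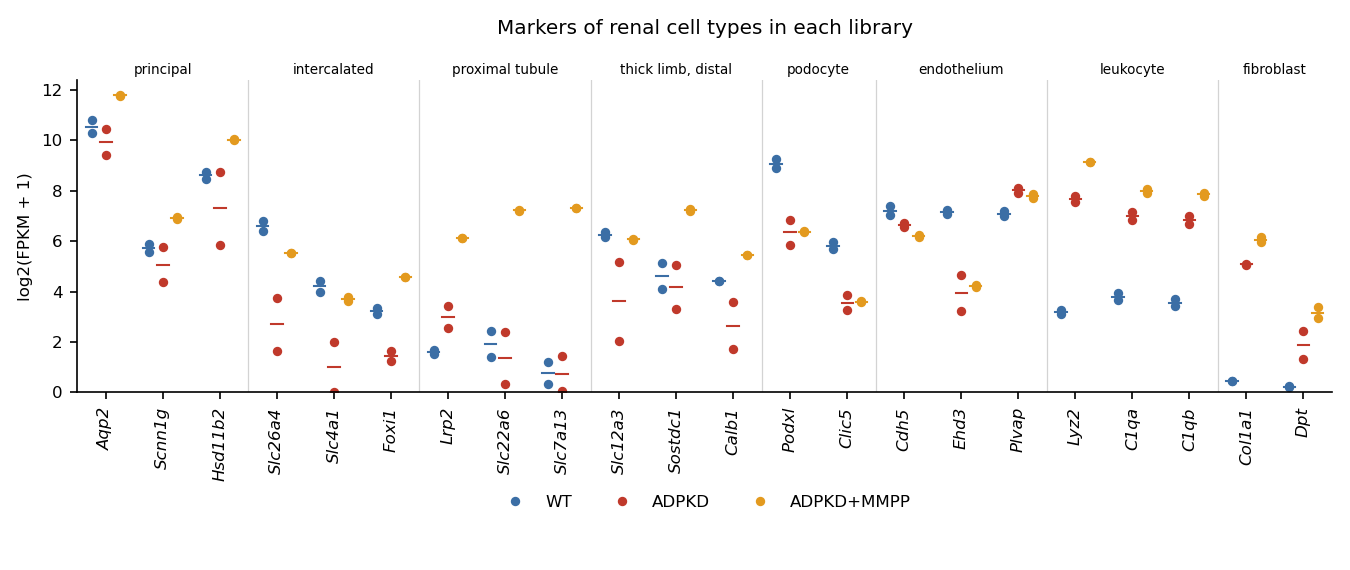
Expression of cell type markers as log2(FPKM + 1) (vertical axis) in each library, with 2 points per group and a line at their mean; blue is WT, red ADPKD and orange ADPKD+MMPP. Proximal tubule genes are highest in ADPKD+MMPP, *Podxl* runs from 475 and 609 FPKM in WT down to 84.1 and 80.8, and *Lyz2* is above WT in both other groups.

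The genes furthest from WT could be followed in genes with exactly 1 annotated transcript, where no other transcript of the same gene shares the exons. Transcripts of overlapping genes were not looked at. Among these, 321 rose and 79 fell with libraries that did not overlap and a mean of at least 5 FPKM in 1 of the 2 groups. As deposited the median of all 1283 such genes was 1.26, and centred on their own median they gave 339 called higher and 382 called lower, so the split of 321 and 79 is read only beside that shift. The highest log2 fold changes were those of *Sprr2f*, *Slc7a13*, *Ugt2b38*, *Psca*, *Lyz2*, *Slc3a1*, *Nat8* and *Tmem174*. *Sprr2f*, a small proline-rich protein of stressed epithelia on chromosome 3 at 92365187-92366442, had 0.43 and 1.49 FPKM in WT against 17.8 and 84.3 in ADPKD and 178 and 198 in ADPKD+MMPP, or 5.39 ± 0.67 centred (limma adjusted p = 5.36e-04). *Slc7a13* on chromosome 4 at 19818725-19842218, encodes an amino acid transporter of the proximal tubule that pairs with the product of *Slc3a1*. *Slc7a13* had 161 and 159 FPKM in ADPKD+MMPP against 1.28 and 0.272 in WT and 1.75 and 0.0291 in ADPKD, or 5.3 ± 0.48 centred (limma adjusted p = 1.40e-04), and was not called in ADPKD at -0.02 ± 0.50. *Slc3a1* had 1.77 and 1.12 FPKM in WT against 21.8 and 7.02 in ADPKD and 133 and 132 in ADPKD+MMPP, so it was above WT in both comparisons and highest under treatment. *Ugt2b38*, a glucuronosyltransferase, had 262 and 246 FPKM in ADPKD+MMPP against 2.66 and 1.09 in WT and 12.5 and 1.53 in ADPKD. *Nat8*, an acetyltransferase of the kidney and liver, had 2.8 and 1.98 FPKM in WT against 9.02 and 3.31 in ADPKD and 160.5 and 161 in ADPKD+MMPP, and *Tmem174*, a membrane protein of the kidney, 159.8 and 151 FPKM in ADPKD+MMPP against 2.82 and 1.84 in WT and 16.3 and 6.48 in ADPKD. *Psca*, a surface antigen of epithelia, had 2.62 and 1.54 FPKM in WT against 41.4 and 142 in ADPKD and 205 and 204 in ADPKD+MMPP. All 8 genes were highest in the treated libraries, and 6 of them, all but *Slc7a13* and *Ugt2b38*, were also called higher in ADPKD. *Sprr2f* and *Ugt2b38* belong to families of near-identical genes, so reads may be shared among the copies.

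The lowest changes among 1-transcript genes were those of *Rps12-ps3*, *Rnf186*, *Sost*, *Kctd11*, *Cxcl13*, *Nxph3*, *S1pr3* and *Gdf10*. *Rps12-ps3* is a copy of a ribosomal protein gene and its reads may belong to the parent gene. It was listed at 0 in both treated libraries and at 155 and 186 FPKM in WT, and no fold is given. In ADPKD it had 203 and 333 FPKM and was called higher. *Rnf186*, a ubiquitin ligase of epithelia on chromosome 4 at 138967112-138968360, had 0 and 0.585 FPKM in ADPKD+MMPP against 17 and 18.5 in WT and 35.4 and 42 in ADPKD, so ADPKD was above WT and ADPKD+MMPP far below, with a centred change of -5.16 ± 0.24 (limma adjusted p = 2.14e-05). *Kctd11*, a suppressor of Hedgehog signalling, had 12.6 and 12.1 FPKM in WT against 7.61 and 8.48 in ADPKD and 0.0538 and 0.175 in ADPKD+MMPP, a centred change of -4.85 ± 0.13 (limma adjusted p = 1.46e-05). *Cxcl13*, a chemokine that attracts B cells, had 1.33 and 1.28 FPKM in ADPKD+MMPP against 28.9 and 21.4 in WT and 6.57 and 5.64 in ADPKD, and *S1pr3*, a receptor for sphingosine 1-phosphate, 110.1 and 95.7 FPKM in WT against 33.5 and 22.4 in ADPKD and 11.8 and 11.3 in ADPKD+MMPP. *Nxph3*, a secreted neurexin ligand, had 0.484 and 0.437 FPKM in ADPKD+MMPP against 12.5 and 15.2 in WT and 2.49 and 0.401 in ADPKD. In *Cxcl13* and *S1pr3* WT was highest, ADPKD lower and ADPKD+MMPP lowest, and in *Nxph3* the ADPKD and treated libraries overlapped below WT.

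The genes furthest from WT in both comparisons, with a share of at least 0.8, were *Psca*, *Col1a1*, *Lyz2*, *Sprr2f* and *Ccl8* on the high side. *Ccl8*, a chemokine for monocytes, was at 0.128 and 0 FPKM in WT against 21.5 and 18.2 in ADPKD and 51.7 and 38 in ADPKD+MMPP, so it was at or near 0 in WT, present in ADPKD and higher still in ADPKD+MMPP. On the low side were *Sost*, *Ddn*, *Shisa3*, *Gdf10* and *Myom2*. *Sost*, which encodes the WNT antagonist sclerostin, had 0.41 and 1.24 FPKM in ADPKD+MMPP against 22.7 and 19 in WT and 1.51 and 0 in ADPKD. *Ddn*, which encodes dendrin of the podocyte slit diaphragm, had 26.2 and 36.5 FPKM in WT against 4.35 and 1.03 in ADPKD and 0.493 and 1.12 in ADPKD+MMPP. Its change in ADPKD+MMPP was -4.17 ± 0.47 as deposited and -5.43 ± 0.44 centred (limma adjusted p = 9.90e-05 centred), against -3.28 ± 0.47 in ADPKD as deposited. *Shisa3*, an inhibitor of WNT and FGF signalling, had 1.92 and 1.74 FPKM in ADPKD+MMPP against 25.7 and 48 in WT and 5.5 and 1.57 in ADPKD. *Gdf10*, a member of the BMP family, had 24.9 and 20.5 FPKM in WT against 3.68 and 0.305 in ADPKD and 2.41 and 1.48 in ADPKD+MMPP, and *Myom2*, a sarcomere protein, 0.325 and 0.352 FPKM in ADPKD+MMPP against 19.9 and 34 in WT and 4.06 and 1.22 in ADPKD. In these 5 genes every Pkd1-/- library, treated or not, lay below both WT libraries. Because these genes were chosen for their values in both comparisons, they are a description.

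Genes of tubular injury and repair were mostly above WT under treatment. Of 26 tested, 14 rose and 5 fell in ADPKD+MMPP, with a median of 1.56 as deposited and 1.23 centred, against 23 higher, none lower and a median of 1.84 in ADPKD. *Krt8*, the keratin partner of *Krt18*, had 227 and 316 FPKM in WT against 1187 and 1494 in ADPKD and 2574 and 2729 in ADPKD+MMPP. Its change in ADPKD+MMPP was 3.30 ± 0.20 as deposited and 2.04 ± 0.20 centred (limma adjusted p = 1.89e-04 centred), against 2.31 ± 0.20 in ADPKD as deposited. *Sox9*, a transcription factor of regenerating tubules, had 56.2 and 57.8 FPKM in ADPKD+MMPP against 2.9 and 7.41 in WT and 34.7 and 64.6 in ADPKD, and its relative *Sox4* had 27 and 23.4 FPKM in WT against 71.3 and 129 in ADPKD and 154 and 161 in ADPKD+MMPP. *S100a11*, a calcium-binding protein, had 2234 and 2215 FPKM in ADPKD+MMPP against 384 and 474 in WT and 1029.6 and 1027 in ADPKD. In these 4 genes WT was lowest and overlapped with no other group. *Krt20*, a keratin of injured tubules, had 0.628 and 1.86 FPKM in WT against 44.9 and 59.8 in ADPKD and 39.6 and 38.1 in ADPKD+MMPP, so the Pkd1-/- libraries, treated or not, were far above WT. *Havcr1*, which encodes KIM-1, and *Lcn2*, which encodes NGAL, are markers of tubular injury in the clinic. *Havcr1* had 14.1 and 13.7 FPKM in ADPKD+MMPP against 0 and 0.0559 in WT and 136 and 26.6 in ADPKD, and *Lcn2* had 8.94 and 14.2 FPKM in WT against 257 and 609.7 in ADPKD and 327 and 314 in ADPKD+MMPP. The 5 that fell were *Vim*, *Anxa2*, *Cdkn1a*, *Anxa1* and *Cxcl1*. The annexin genes had gone up in ADPKD, as *Anxa1* shows with 15.9 and 18.1 FPKM in ADPKD+MMPP against 77.5 and 89.9 in WT and 253 and 331 in ADPKD. *Cdkn1a*, which encodes the cell cycle inhibitor p21, had 160.1 and 158 FPKM in WT against 128 and 175 in ADPKD and 26.6 and 26.3 in ADPKD+MMPP.

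**Figure D4:**
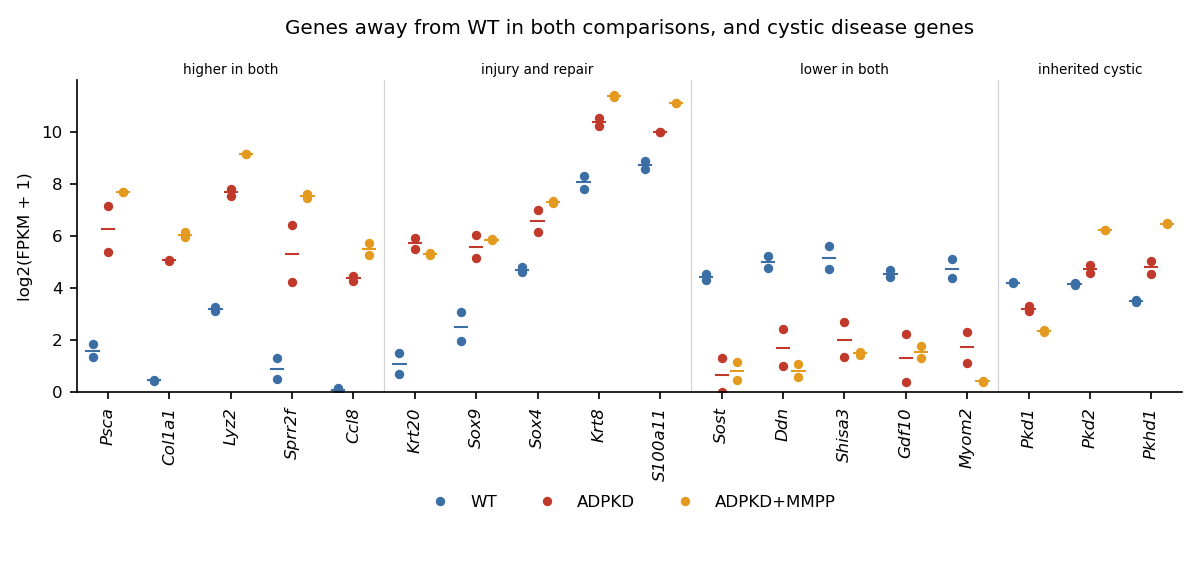
Expression as log2(FPKM + 1) (vertical axis) in each library of the 5 genes furthest above and the 5 furthest below WT in both comparisons, 5 genes of injury and repair, and 3 genes of inherited cystic disease; 2 points per group with a line at their mean. *Lyz2* rises from 7.63 and 8.69 FPKM in WT to 568 and 565 in ADPKD+MMPP, and *Sost* drops from 22.7 and 19 to 0.41 and 1.24.

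Among genes of inherited cystic disease, 6 of 24 rose and 4 fell in ADPKD+MMPP, against 4 higher and 3 lower in ADPKD. Those that fell were *Lrp5*, *Pkd1*, *Tsc2* and *Tsc1*. *Pkhd1*, which encodes fibrocystin of the recessive disease and lies on chromosome 1 at 20057779-20618064, had 90.8 and 86.7 FPKM in ADPKD+MMPP against 10.8 and 10 in WT and 32.4 and 22.4 in ADPKD. Its change in ADPKD+MMPP was 2.97 ± 0.19 as deposited and 1.71 ± 0.18 centred (limma adjusted p = 2.50e-04 centred), against 1.29 ± 0.19 in ADPKD as deposited. *Pkd2*, which encodes polycystin 2, the channel that partners polycystin 1, had 17.2 and 16.5 FPKM in WT against 28.5 and 23.3 in ADPKD and 75.1 and 74.8 in ADPKD+MMPP, with 1.66 ± 0.13 centred (limma adjusted p = 7.75e-05). *Bicc1*, an RNA-binding protein, had 47.5 and 46.6 FPKM in ADPKD+MMPP against 11.4 and 12.3 in WT and 43 and 41.1 in ADPKD. The WT level of these 3 genes was the lowest of the 3 groups. *Ofd1*, a protein of the ciliary base, gave 1.06 as deposited and -0.20 centred. The list's median was -0.53 as deposited (-0.83 to -0.03 over the other scalings) and 0.44 centred.

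Cell cycle genes rose in 11 of 24 cases and fell in 1, with a median of 1.03 as deposited and 0.91 centred, against 9 higher, 2 lower and 0.25 in ADPKD. *Mki67*, the proliferation antigen with a share of 94.3%, had 0.666 and 0.594 FPKM in WT against 3.59 and 2.02 in ADPKD and 8.64 and 7.85 in ADPKD+MMPP, a centred change of 1.24 ± 0.20 (limma adjusted p = 0.00158). *Cdk6*, a kinase of the G1 phase, had 7.8 and 8.84 FPKM in ADPKD+MMPP against 1.18 and 1.07 in WT and 3.22 and 3.42 in ADPKD, a centred change of 1.24 ± 0.13. *Mcm2*, of the replicative helicase, had 2.39 and 2.33 FPKM in WT against 3.42 and 1.91 in ADPKD and 11 and 11.8 in ADPKD+MMPP, so the treated libraries stood above all others. *Ccnd1*, which encodes cyclin D1, gave 1.68 as deposited and 0.79 centred, and the mitotic cyclin gene *Ccnb2* 1.64 and 0.37, neither called when centred. The gene that fell was *Ccnd3*, with 0.83 and 1.07 FPKM in ADPKD+MMPP against 8.7 and 9.32 in WT and 7.62 and 5.94 in ADPKD. *Cdk1*, the mitotic kinase, was below the filter, with 0.186 and 0.229 FPKM in WT against 1.49 and 0.822 in ADPKD and 0.412 and 0.297 in ADPKD+MMPP.

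Oxidative phosphorylation genes, which encode the respiratory chain and ATP synthase, were mostly higher than WT in ADPKD+MMPP, and none of them passed the thresholds in ADPKD. Of 75 genes tested, 54 were higher and 11 lower as deposited, and of the 73 that could be centred 46 rose and 8 fell, with medians of 1.25 as deposited (0.86 to 1.41 over the other scalings) and 1.08 centred. In ADPKD the unadjusted P of limma was under 0.05 for 0 higher and 5 lower genes, with no fold change of 1.5, and the median was -0.16. The summed level was 5898 and 5526 FPKM in WT against 6028 and 4507 in ADPKD and 14757 and 14924 in ADPKD+MMPP. *Uqcrfs1*, the Rieske protein of complex III on chromosome 13 at 30540308-30545362, had 475 and 466 FPKM in ADPKD+MMPP against 108 and 100 in WT and 99.1 and 85.7 in ADPKD, a centred change of 0.90 ± 0.13 (limma adjusted p = 8.95e-04). *Ndufa1* and *Ndufa2*, of complex I, gave centred changes of 1.08 ± 0.16 and 1.04 ± 0.14. Among the 8 that fell were *Atp5d*, *Ndufs7*, *Ndufs1*, *Ndufa12*, *Ndufb8*, *Ndufb10* and *Atp5c1*. *Ndufs1*, of the core of complex I with a share of 64.2%, had 9.89 and 8.48 FPKM in WT against 7.28 and 4.98 in ADPKD and 2.01 and 2.16 in ADPKD+MMPP. Proximal tubule cells are rich in mitochondria, and the part of the proximal tubule genes given above in this result was not tested.

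Tricarboxylic acid cycle genes were split, with 8 of 19 that rose and 4 that fell. *Cs*, which encodes citrate synthase, had 129.6 and 124 FPKM in ADPKD+MMPP against 32.1 and 29.7 in WT and 41.6 and 29.9 in ADPKD, a centred change of 0.74 ± 0.17 (limma adjusted p = 0.00725). *Suclg1*, of succinate-CoA ligase, gave 1.19 centred and *Dlat*, of pyruvate dehydrogenase, 0.59. The malate dehydrogenase gene *Mdh1* fell, with 114 and 107 FPKM in WT against 113 and 66.6 in ADPKD and 0.891 and 0.413 in ADPKD+MMPP, and *Dlst*, *Ogdh* and *Mdh2* fell as well. In ADPKD 1 gene of the list was called, lower. The list's median was -0.22 as deposited and 0.59 centred. Of 21 genes of mitochondrial fatty acid oxidation 10 rose and 4 fell, and none was called in ADPKD, where the unadjusted P of limma was under 0.05 for 2 higher and 2 lower genes. *Hadh* had 73.7 and 75.9 FPKM in ADPKD+MMPP against 14.2 and 12.7 in WT and 16.2 and 12.1 in ADPKD, with 1.25 ± 0.14 centred (limma adjusted p = 3.43e-04). *Decr1*, which handles unsaturated chains, had 9.14 and 8.01 FPKM in WT against 13.5 and 6.85 in ADPKD and 58.6 and 57.8 in ADPKD+MMPP, and *Slc25a20*, the carnitine carrier, 28.7 and 29.3 FPKM in ADPKD+MMPP against 7.06 and 5.91 in WT and 9.11 and 8.07 in ADPKD. The 4 that fell were *Hadhb*, *Etfdh*, *Acadvl* and *Acsl1*. The medians of this list were 0.41 as deposited, 0.94 centred and -0.07 in ADPKD.

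Antioxidant genes and targets of NRF2, the regulator of the oxidative stress response, were more often above than below WT in both comparisons. In ADPKD+MMPP 12 of 31 rose and 3 fell, with medians of 0.84 as deposited and 0.82 centred. In ADPKD 13 were higher and 2 lower as deposited, with a median of 0.53, and 12 and 2 on both scales. As deposited, ADPKD+MMPP gave 17 higher and 5 lower. *Txn1*, which encodes thioredoxin, had 113 and 114.8 FPKM in WT against 249.8 and 297 in ADPKD and 712 and 772 in ADPKD+MMPP, a centred change of 1.43 ± 0.14 (limma adjusted p = 2.10e-04). *Srxn1*, which encodes sulfiredoxin, gave 1.5 ± 0.35 centred. *Nqo1*, a quinone reductase, had 45 and 40 FPKM in ADPKD+MMPP against 6.04 and 5.05 in WT and 12.2 and 19.4 in ADPKD. *Cat*, which encodes catalase, had 29.8 and 26.4 FPKM in WT against 42.9 and 26.8 in ADPKD and 219 and 228 in ADPKD+MMPP, and *Sod3*, the secreted superoxide dismutase, had 124 and 122 FPKM in ADPKD+MMPP against 5.92 and 9.01 in WT and 30 and 15 in ADPKD. In these 3 genes the treated libraries were the highest. *Gclc*, of glutathione synthesis, gave 1.37 as deposited and 0.23 centred, the latter not called. *Nfe2l2*, which encodes NRF2 itself, had 88.8 and 86.5 FPKM in WT against 57 and 64.2 in ADPKD and 154 and 151 in ADPKD+MMPP, that is 0.79 ± 0.12 as deposited and -0.47 ± 0.13 centred. The 3 that fell were *Txn2*, *Txnrd2* and *Txnrd1*. *Txnrd1*, the cytosolic thioredoxin reductase, had 28.4 and 28.9 FPKM in ADPKD+MMPP against 60.1 and 87.6 in WT and 107 and 160.1 in ADPKD. *Hmox1*, which encodes heme oxygenase 1, had 111 and 404 FPKM in WT against 267 and 712 in ADPKD and 381 and 376 in ADPKD+MMPP, so its WT libraries lay further apart than the groups, and it was called in neither comparison.

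Metal handling genes, of interest because the particle carries Mn2+, gave 4 of 15 that rose and 3 that fell. *Slc39a14*, which imports manganese and zinc, rose, with 11.1 and 10.6 FPKM in ADPKD+MMPP against 1.02 and 1.24 in WT and 3.72 and 7.14 in ADPKD. *Slc30a1*, the zinc exporter, had 6.07 and 5.88 FPKM in WT against 8.48 and 8.37 in ADPKD and 23.1 and 22.3 in ADPKD+MMPP, and *Slc40a1*, which encodes ferroportin, 12 and 13.4 FPKM in ADPKD+MMPP against 1.54 and 2.5 in WT and 5.16 and 3.85 in ADPKD, with centred changes of 0.62 ± 0.12 and 0.93 ± 0.19. *Tmem165*, a Golgi transporter for manganese, had 8.32 and 9.06 FPKM in WT against 11.3 and 13.3 in ADPKD and 41.4 and 39.5 in ADPKD+MMPP, and it was not called in ADPKD. In these 4 genes the treated libraries were the highest and WT the lowest. *Fth1*, the heavy chain of ferritin, fell, with 57.7 and 55.4 FPKM in ADPKD+MMPP against 259.6 and 272 in WT and 398 and 576 in ADPKD, and *Atp2c1* and *Cp* fell too. The manganese exporter gene *Slc30a10* was below 0.1 FPKM in every library. The list's median was -0.74 as deposited and 0.20 centred, against 0.43 in ADPKD.

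Lysosomal genes were called higher in 13 of 29 cases and lower in none in ADPKD as deposited, and in 8 on both scales, while in ADPKD+MMPP 9 rose and 8 fell. *Lamp1*, of the lysosomal membrane, had 155 and 155 FPKM in WT against 244 and 184 in ADPKD and 724 and 725 in ADPKD+MMPP, and the cathepsin genes *Ctsb* and *Ctsz* gave centred changes of 0.81 ± 0.13 and 0.96 ± 0.19. *Gla*, which encodes alpha-galactosidase A and has a share of 92.5%, fell from 23.3 and 33.4 FPKM in WT to 0.104 and 0.0561 in ADPKD+MMPP, and had 33.3 and 23.3 in ADPKD. *Ctsl*, another cathepsin, had 1.92 and 2.26 FPKM in ADPKD+MMPP against 67.8 and 85.5 in WT and 147 and 179 in ADPKD, so it was above WT in ADPKD and below under treatment.

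Immediate early and cyclic AMP-induced genes were more often below than above WT in both comparisons. Of 29 tested, 11 fell and 1 rose in ADPKD+MMPP, with a median of -0.73 as deposited (-1.31 to -0.57 over the other scalings) and -0.69 centred. In ADPKD 13 were lower and 2 higher as deposited, with a median of -0.57, and 13 and 1 on both scales. As deposited, ADPKD+MMPP gave 17 lower and 4 higher. These genes also answer to tissue digestion, which all libraries went through. CREB binds the palindrome TGACGTCA and its half-site TGACG, which reads CGTCA on the other strand and is contained in the palindrome. RefSeq promoters on GRCm38.p6, 250 bases before to 50 bases after the start, were at hand for 22 of the 29 genes, and 15 of these (68.2%) held a half-site and 2 (9.09%) the palindrome. Of the 27025 genes of the files with such a window, 23.0% held a half-site and 2.03% the palindrome, and of the 10060 tested genes with a promoter 34.5% and 3.37%. The list was drawn up as early and cyclic AMP-induced genes, so its higher percentages are no independent result. A match is a description of the letters and not evidence of binding. The promoters of *Dusp1* and *Btg2*, the only list members with the palindrome in this window, and of *Nr4a2*, with 4 half-sites, are shown because *Dusp1* and *Nr4a2* fell and *Btg2* did not, 5′ to 3′ with the half-sites in capitals. They lie at chr17:26508423-26508722 (*Dusp1*), chr2:57123954-57124253 (*Nr4a2*) and chr1:134079106-134079405 (*Btg2*), all on the minus strand.
Dusp1: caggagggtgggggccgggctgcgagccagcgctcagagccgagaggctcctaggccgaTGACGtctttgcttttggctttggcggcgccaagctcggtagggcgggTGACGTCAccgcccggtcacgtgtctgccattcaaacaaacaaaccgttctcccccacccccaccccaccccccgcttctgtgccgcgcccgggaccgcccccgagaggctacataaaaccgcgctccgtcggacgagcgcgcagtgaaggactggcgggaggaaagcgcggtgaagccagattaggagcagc
Nr4a2: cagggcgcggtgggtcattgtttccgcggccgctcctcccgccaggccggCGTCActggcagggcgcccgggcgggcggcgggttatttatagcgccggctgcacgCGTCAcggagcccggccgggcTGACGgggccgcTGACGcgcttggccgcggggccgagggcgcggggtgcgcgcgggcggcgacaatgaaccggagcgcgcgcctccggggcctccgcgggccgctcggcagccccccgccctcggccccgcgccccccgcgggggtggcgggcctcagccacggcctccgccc
Btg2: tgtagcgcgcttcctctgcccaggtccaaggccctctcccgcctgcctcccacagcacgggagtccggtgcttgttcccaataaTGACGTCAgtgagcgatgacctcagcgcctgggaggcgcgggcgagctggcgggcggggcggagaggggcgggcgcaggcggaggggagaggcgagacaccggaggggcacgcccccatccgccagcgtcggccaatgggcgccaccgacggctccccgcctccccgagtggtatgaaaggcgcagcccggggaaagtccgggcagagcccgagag
The palindrome begins 143 bases before the start in *Dusp1* and 166 bases before it in *Btg2*.

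*Dusp1*, a phosphatase that switches off MAP kinases, had 1041 and 979 FPKM in WT against 513 and 425 in ADPKD and 58.2 and 53.6 in ADPKD+MMPP. Its change was -2.95 ± 0.14 centred in ADPKD+MMPP (limma adjusted p = 2.16e-05) and -1.11 ± 0.14 in ADPKD as deposited. *Nr4a2*, an orphan nuclear receptor with a share of 7.79%, had 3.84 and 4.56 FPKM in ADPKD+MMPP against 44.8 and 38.5 in WT and 22.8 and 33.5 in ADPKD, with -3.04 ± 0.21 as deposited, -0.94 ± 0.22 centred (limma adjusted p = 0.00795) and -0.57 ± 0.21 in ADPKD. *Btg2*, an antiproliferative gene with 1 transcript, went the other way, with 239 and 259 FPKM in WT against 176 and 125 in ADPKD and 900.3 and 885 in ADPKD+MMPP, or 1.84 as deposited and 0.58 centred, the latter not called. *Myc*, a growth regulator with a share of 13.9%, had 0.873 and 1.35 FPKM in ADPKD+MMPP against 29.9 and 35.8 in WT and 75.5 and 91.5 in ADPKD. Its level was thus above WT in ADPKD and below WT in ADPKD+MMPP, at -4.01 ± 0.18 as deposited, -2.02 ± 0.19 centred (limma adjusted p = 1.64e-04) and 1.32 ± 0.18 in ADPKD. The AP-1 genes *Jun* and *Junb* belong to the class of high shares, whose changes as deposited were mostly positive. *Junb* had 2432 and 2372 FPKM in WT against 1221 and 910.3 in ADPKD and 2805 and 2837 in ADPKD+MMPP, so the treated libraries lay slightly above WT, with 0.23 as deposited and not called, and -1.03 centred. *Jun* had 1867 and 1952 FPKM in ADPKD+MMPP against 1544 and 1694 in WT and 935 and 665 in ADPKD, with 0.24 and -1.02. Both changes as deposited turned negative when the libraries were scaled to a common sum or by quantiles. *Jund* fell, with 656 and 575 FPKM in WT against 473 and 405 in ADPKD and 371 and 366 in ADPKD+MMPP, and so did *Klf2*, a factor induced by shear stress, with 293 and 305 FPKM in ADPKD+MMPP against 483 and 490 in WT and 296 and 235 in ADPKD. *Ier3* had 651 and 639 FPKM in WT against 447 and 421 in ADPKD and 1382 and 1409.7 in ADPKD+MMPP, or 1.11 and -0.15. The gene that rose was *Klf6*, a zinc finger factor, with 624 and 612 FPKM in ADPKD+MMPP against 268 and 325 in WT and 442 and 401 in ADPKD. *Fos* had 1907 and 2120.2 FPKM in WT against 953 and 604 in ADPKD and 2228 and 2253 in ADPKD+MMPP, near WT under treatment and called on neither scale.

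**Figure D5:**
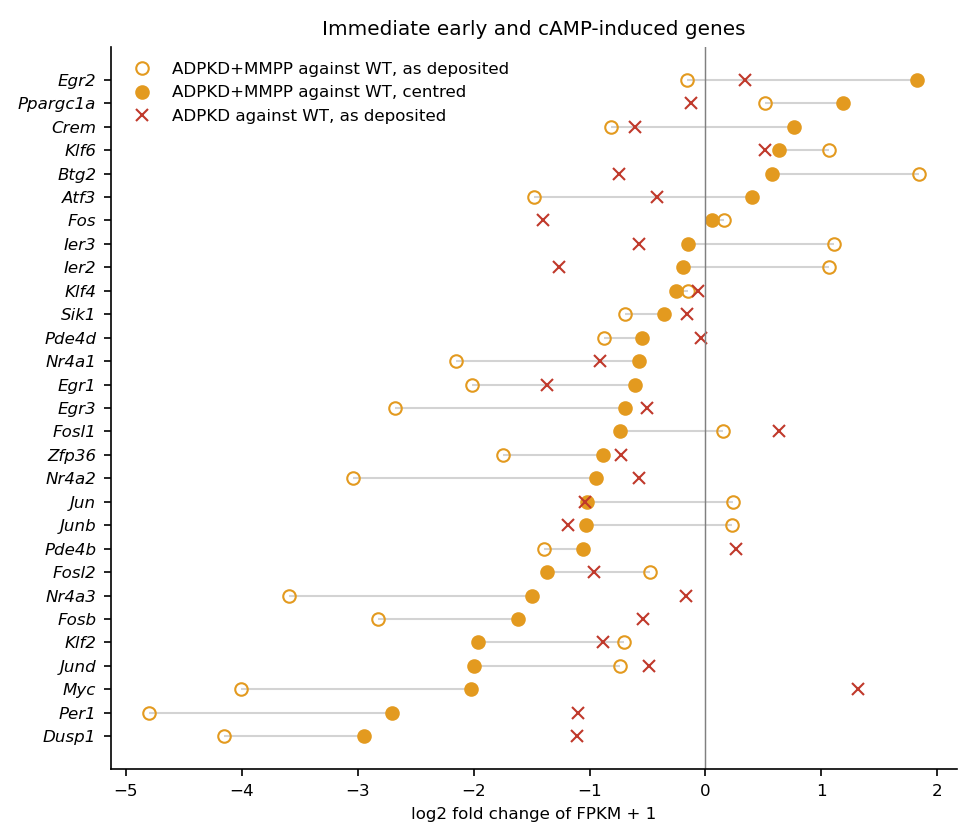
Log2 fold change against WT (horizontal axis) of 29 immediate early and cAMP-induced genes, ordered by the centred value; open circles are ADPKD+MMPP as deposited, filled circles ADPKD+MMPP centred and crosses ADPKD as deposited. The filled circles run from -2.95 for *Dusp1* to 1.82 for *Egr2*, and the grey lines show how far the centring moves each gene.

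Of the 15 genes for CREB, its relatives and its coactivators, 3 fell and none rose in ADPKD+MMPP, against 1 higher and 2 lower in ADPKD. *Creb1* itself had 2.6 and 2.57 FPKM in ADPKD+MMPP against 3.53 and 3.58 in WT and 1.99 and 2.14 in ADPKD, with -0.34 ± 0.11 as deposited, -0.01 ± 0.11 centred and -0.57 ± 0.11 in ADPKD, and was called in neither comparison. Those that fell were *Crtc2* and *Crtc1*, which encode coactivators of CREB, and *Atf2*. *Crtc2* had 45.1 and 40.2 FPKM in WT against 34.7 and 43.4 in ADPKD and 3.81 and 5.24 in ADPKD+MMPP. *Crtc3* gave 0.40 as deposited and -0.74 centred, *Creb3l2* 1.04 and -0.22, and *Crebl2* 1.5 and 0.36. None of these 3 kept a call on both scales.

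Heat shock genes were split, with 7 of 16 that rose and 4 that fell, and a median of 0.13 as deposited (-0.36 to 0.29 over the other scalings) and 0.45 centred. The inducible HSP70 gene *Hspa1b* had 2143 and 2187 FPKM in ADPKD+MMPP against 277 and 386 in WT and 257 and 226 in ADPKD, and its near-identical neighbour *Hspa1a* had 212 and 289 FPKM in WT against 163 and 121 in ADPKD and 1254 and 1217 in ADPKD+MMPP, so the division of reads between them is uncertain. The mitochondrial chaperone genes *Hspd1* and *Hspe1* rose by 2.43 and 1.79 centred. *Hspa8*, the constitutive HSP70, fell, with 21.8 and 20.3 FPKM in ADPKD+MMPP against 440.2 and 466 in WT and 361 and 357 in ADPKD, and so did *Hspa5*, the chaperone BiP of the endoplasmic reticulum, with 579 and 704 FPKM in WT against 865 and 733 in ADPKD and 68.1 and 69.4 in ADPKD+MMPP. *Bag3*, a cochaperone, gave 0.25 as deposited and -1.01 centred, and turned negative under 2 of the 3 other scalings.

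Matrix and TGF-beta genes were more often called higher than lower in ADPKD, with 16 of 36 higher and 2 lower as deposited and 15 and 2 on both scales. In ADPKD+MMPP 7 rose and 7 fell, and as deposited 14 were higher and 12 lower. The median was -0.04 as deposited (-0.43 to 0.12 over the other scalings), -0.05 centred and 0.60 in ADPKD. *Itgb6*, of the integrin that activates TGF-beta, rose, with 15.2 and 15.5 FPKM in ADPKD+MMPP against 1.84 and 1.58 in WT and 6.53 and 8.72 in ADPKD, and *Col6a1* rose, with 0.687 and 1.14 FPKM in WT against 16.1 and 14 in ADPKD and 17.5 and 20 in ADPKD+MMPP. *Mmp7*, a matrix protease of injured tubules, was listed at 0 in both WT libraries, at 0.736 and 39 FPKM in ADPKD and at 22.3 and 19.1 in ADPKD+MMPP. *Tgfb1* fell, with 16.8 and 17.2 FPKM in ADPKD+MMPP against 28.9 and 24.2 in WT and 18.4 and 24.1 in ADPKD, and *Sparc*, a matrix protein of stromal cells, fell, with 278 and 328 FPKM in WT against 340.2 and 344 in ADPKD and 11.9 and 10 in ADPKD+MMPP. The inhibitor gene *Timp3* had 215 and 211 FPKM in ADPKD+MMPP against 291 and 268 in WT and 148 and 145 in ADPKD, with -0.39 as deposited and -1.65 centred, *Timp2* gave 0.02 and -1.12, and the laminin gene *Lama5* 1.2 and -0.06. None of these 3 was called on both scales.

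Cytosolic ribosomal protein genes had no common direction in ADPKD+MMPP. Of 78, 18 rose and 24 fell, with a median of 0.07 as deposited (-0.32 to 0.23 over the other scalings) and 0.40 centred, against 23 higher, none lower and 0.50 in ADPKD. *Rplp1*, of the ribosomal stalk, had 853 and 885 FPKM in WT against 1051 and 1532 in ADPKD and 3299 and 3320.1 in ADPKD+MMPP, and gave 0.67 centred, while *Rps3a1* and *Rpl36* gave 0.37 and 0.10 and were not called there. Many of these genes have processed copies in the genome, and reads may be shared with them.

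Cholesterol synthesis genes rose in 6 of 23 cases and fell in 3, with a median of -0.03 as deposited (-0.35 to 0.31 over the other scalings) and 0.19 centred, against 3 higher and 1 lower in ADPKD. *Nsdhl*, a sterol dehydrogenase, rose, with 34.3 and 33.8 FPKM in ADPKD+MMPP against 5.97 and 5.67 in WT and 7.08 and 5.28 in ADPKD, and gave 1.1 ± 0.15 centred, and the sterol sensor gene *Insig1* 0.19 ± 0.14, not called.

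Interferon-stimulated and MHC class I genes fell in 8 of 24 cases and rose in 1, against 5 lower and none higher in ADPKD. The median was -1.14 as deposited, -0.38 centred and -0.37 in ADPKD. *Irf1*, a transcription factor induced by interferon gamma, had 151 and 134 FPKM in WT against 85.9 and 53 in ADPKD and 1.64 and 1.59 in ADPKD+MMPP, the lowest member on both scales, at -4.69 centred. *Tap1* and *Tap2*, the peptide transporter of antigen presentation, gave -1.91 and -2.62 centred. *B2m*, the light chain of MHC class I, had 2414 and 2508 FPKM in ADPKD+MMPP against 1390.5 and 1171 in WT and 1157 and 665 in ADPKD, or 0.95 as deposited and -0.32 centred. *Ifitm3* had 659 and 596 FPKM in WT against 469 and 287 in ADPKD and 535 and 521 in ADPKD+MMPP, with -0.25 and -1.51, and *Isg15* 98.8 and 89.7 FPKM in ADPKD+MMPP against 64.9 and 63 in WT and 142 and 64.3 in ADPKD, with 0.55 and -0.71. The only one that rose was *Bst2*, which encodes tetherin, with 98.5 and 90 FPKM in WT against 94.4 and 47.4 in ADPKD and 197 and 199.5 in ADPKD+MMPP.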

How the data were processed

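RNA-seq of DBA-captured kidney cells was deposited as 1 table of FPKM per gene symbol for each of the 6 libraries. Per the study's methods, the authors aligned reads with HISAT2 2.1.0 and counted them with featureCounts 1.6.0 on GRCm38. The annotation release and the way the deposited FPKM values were made are not given in the sources used here.

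Groups came from the sample titles. The deposited FPKM were taken as log2(FPKM + 1) and fitted in limma 3.58.1 (R 4.3.3) in 1 model over all 6 libraries, with 3 residual and 2.77 prior degrees of freedom. A gene was called where it differed at least 1.5-fold with a two-sided unadjusted P under 0.05, and Benjamini-Hochberg adjusted p-values run over all 14100 genes. The study's DESeq2 needs counts and was not used. Symbols were matched to GENCODE vM21 for 53253 of 55367. Centred values use classes of the single-transcript share of exon bases over 12052 protein-coding genes, set as 20 with genes of the same share kept in 1 class. Their adjusted p-values run over these genes.

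Members and gene lists were chosen with earlier results of these data known. Genes were named by rule: *Pkd1* and *Esr1*, the 8 highest and 8 lowest 1-transcript genes called on both scales, the 5 furthest from WT in each direction in both comparisons, up to 3 members of each of 26 lists with the highest mean FPKM among those with a share of at least 0.8, defining cell type markers, and *Myc*, *Nr4a2*, *Nfe2l2* and *Creb1*, which the study names. Further list members are named to account for a list's counts and were chosen after their values were seen. The steps were tested on simulated data. Alternatives covered pseudocount, filters, scalings, thresholds, samples, replicate block and left-out libraries. Some genes of these lists enter the counts and are not reported here by name.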

Additional observations from a re-analysis of the deposited data

How the results depend on the processing

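The 4 counts of called genes stayed within 1.5 times under the pseudocount of 0.1, the looser filters, the 3 scalings, the fit of the compared groups alone, the variance trend and an adjusted p under 0.05. At an FPKM of at least 5, the ADPKD+MMPP libraries gave 3782 lower genes, and ADPKD gave 1174 higher and 1172 lower. At a fold change of at least 2, ADPKD gave 854 higher and 936 lower. Restricting to genes with 1 transcript left 339 higher and 382 lower in ADPKD+MMPP and 198 and 262 in ADPKD, and a share of at least 0.8, an alternative chosen after seeing the data, left 686 and 723, and 391 and 412, since fewer genes were tested. The ADPKD+MMPP count of lower genes was 3262 when centred and 3727 when the treated FPKM were divided by the share. Higher genes made up 41.5% of the ADPKD+MMPP calls as deposited, against 32.8% with a common sum (3456 higher, 7076 lower), 52.5% by quantiles (5385 and 4864), 54.4% divided and 56.6% centred. Leaving out each library in turn gave 4224 to 4517 higher and 6064 to 6329 lower genes in ADPKD+MMPP. In ADPKD it gave 1591 to 2177 higher and 1673 to 2404 lower.

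Replicate numbers in the labels name no shared animal, and same-numbered libraries deviated together with r of 0.144 (WT and ADPKD), -0.0103 (WT and ADPKD+MMPP) and 0.0182 (ADPKD and ADPKD+MMPP). With the replicate number as a block the pairing gave 4478 higher and 6302 lower genes in ADPKD+MMPP and 1867 and 1907 in ADPKD.

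Some genes chosen by rule changed sign in ADPKD+MMPP against WT, and the cause was not tested. Log2 fold changes with the other sign were, when centred, *Aqp2* (-0.030), *Atp6v0d2* (-0.69), *B2m* (-0.32), *Bag3* (-1.01), *Calb1* (-0.091), *Creb3l2* (-0.22), *Crtc3* (-0.74), *Ier3* (-0.15), *Isg15* (-0.71), *Jun* (-1.02), *Junb* (-1.03), *Lama5* (-0.057), *Nfe2l2* (-0.47), *Ofd1* (-0.20), *Plvap* (-0.56), *Rgs5* (-0.75), *Scnn1b* (0.20), *Timp2* (-1.12) and *Tmem72* (-0.059). Of other genes with values in the text, *Hnf4a* went from -1.72 to 0.27, *Scnn1g* from 1.22 to -0.05 and *Egr2* from -0.16 to 1.82 when centred. Among genes with 1 transcript they were *Aqp2* (-0.041), *B2m* (-0.33), *Bag3* (-1.02), *Ier3* (-0.16), *Isg15* (-0.72), *Jun* (-1.03), *Ofd1* (-0.21) and *Plvap* (-0.57). By quantiles they were *B2m* (-0.21), *Bag3* (-0.17), *Creb1* (0.28), *Jun* (-0.67), *Junb* (-1.63) and *Timp2* (-0.40). With a common sum they were *Bag3* (-0.14), *Jun* (-0.16), *Junb* (-0.16) and *Timp2* (-0.37), and divided by the share *Bag3* (-0.23), *Jun* (-0.25), *Junb* (-0.25) and *Timp2* (-0.25). Without WT replicate 2 they were *Slc34a1* (-0.23) and *Timp2* (-0.036), where leaving out each library in turn gave -0.23 to 1.29 for *Slc34a1* and -0.036 to 0.079 for *Timp2*. *Adgre1* lost its call without either treated library or without WT replicate 2, *B2m* and *Tmem72* without the same, *Aqp2* without either treated library or WT replicate 1, and *Gclc* without WT replicate 1, while *Aqp3*, *Calb1* and *Slc26a4* were called without either ADPKD library. The estimated read total that scales the FPKM was lowest in the treated libraries, at 10.9 and 11.8 M.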
